A study of Mus musculus with 5 samples.

Results

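The genes of the proteasome, the cell's main protease for ubiquitin-tagged proteins, were followed over the 5 arrays of a study of mouse heart muscle differentiation. Members were taken by gene symbol: every named probe whose symbol starts with Psm, then a letter from a to g and a number, with the brightest probe standing for each gene. The rule found 48 genes with 52 probes, out of 17742 genes measured. Of these, Psmc3ip, a meiotic recombination cofactor, and Psme3ip1, a protein that binds the activator subunit Psme3, carry such names but are not proteasome subunits, which left 46 proteasome genes. They held 12 subunits of the 20S core and 17 of the 19S cap, together 29 of the 31 standard core subunits on the list used here. The others, Psma3 and Psmb3, were not among the probes with a single gene symbol.

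All cells came from the mouse embryonic stem cell (ESC) line 46C, and each of the 5 groups held 1 array. The first was undifferentiated ESCs at day 0, grown in serum with LIF on feeder cells that were taken away before harvest. Day 4 cells, called mesoderm by the labels, were a control and a line with knockdown of the long non-coding RNA Linc1405 (named MES_1405KIpA), both grown with Bmp4, Activin A and VEGF. Day 10 cells, called cardiomyocytes, were the control and the knockdown line (CM_1405KIpA), both grown with bFGF, VEGF and FGF10. How the knockdown was made and how many clones the line stands for are not given in the sources used here, and no named probe could be tied to Linc1405, so the knockdown was not checked. A group of 1 array has no replicate spread, and no test was run. Every value given here describes single arrays or pairs of arrays.

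The proteasome is a barrel of stacked alpha and beta rings, the 20S core, in which a few beta subunits do the cutting, and the 19S cap, which binds ubiquitin chains, removes them and unfolds the substrate with a ring of ATPases. Interferon and differentiation into immune cells exchange the catalytic beta subunits for the immunoproteasome subunits Psmb8, Psmb9 and Psmb10, and alternative activators (11S and PA200) can replace the cap. In embryonic stem cells and in the heart the proteasome is best known for protein quality control, and transcription factors of the Nfe2l1 and Nfe2l2 family are known to drive its genes through antioxidant response elements.

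Promoter sequences are shown for the members on which the results turn, the immunoproteasome genes Psmb8 and Psmb9, the activator gene Psme1, a catalytic and a cap subunit that were lower at day 10 (Psmb5 and Psmd1) and the assembly chaperone Psmd10, which was higher. They are RefSeq promoters of the build GRCm38.p6, from 250 bases before to 50 bases after the transcription start, written on the strand of the gene. Capitals mark matches, on either strand, to TGANNNNGC (the antioxidant response element core), CCAAT, the interferon-stimulated response element (a pair of GAAA boxes with any 2 bases between them) and TTCNNNGAA (the gamma-activated site).
Psmb8 promoter, chr17:34197945-34198244, plus strand: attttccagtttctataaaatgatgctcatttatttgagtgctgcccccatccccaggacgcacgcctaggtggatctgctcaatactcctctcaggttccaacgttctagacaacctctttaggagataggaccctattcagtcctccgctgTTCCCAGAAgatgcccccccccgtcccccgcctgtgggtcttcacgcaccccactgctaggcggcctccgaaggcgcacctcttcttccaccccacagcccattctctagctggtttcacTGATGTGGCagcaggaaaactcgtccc
Psmb9 promoter, chr17:34187281-34187580, minus strand: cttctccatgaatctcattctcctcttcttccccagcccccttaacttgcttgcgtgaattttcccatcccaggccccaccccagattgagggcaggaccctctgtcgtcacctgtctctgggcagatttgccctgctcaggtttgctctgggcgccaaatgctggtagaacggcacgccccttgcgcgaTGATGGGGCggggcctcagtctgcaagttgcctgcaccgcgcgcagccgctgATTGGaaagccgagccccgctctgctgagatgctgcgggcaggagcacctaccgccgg
Psme1 promoter, chr14:55578244-55578543, plus strand: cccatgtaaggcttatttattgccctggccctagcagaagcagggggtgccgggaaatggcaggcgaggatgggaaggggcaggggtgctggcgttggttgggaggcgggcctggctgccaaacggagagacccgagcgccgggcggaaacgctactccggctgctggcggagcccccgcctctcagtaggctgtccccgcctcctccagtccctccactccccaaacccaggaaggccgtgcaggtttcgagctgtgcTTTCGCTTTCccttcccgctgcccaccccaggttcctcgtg
Psmb5 promoter, chr14:54617946-54618245, minus strand: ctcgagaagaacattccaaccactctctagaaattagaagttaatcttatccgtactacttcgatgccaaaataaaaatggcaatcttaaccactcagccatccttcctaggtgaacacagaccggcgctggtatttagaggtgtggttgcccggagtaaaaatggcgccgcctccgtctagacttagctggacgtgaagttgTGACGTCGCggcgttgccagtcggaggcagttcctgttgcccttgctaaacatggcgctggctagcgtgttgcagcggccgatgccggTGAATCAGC
Psmd1 promoter, chr1:86064369-86064668, plus strand: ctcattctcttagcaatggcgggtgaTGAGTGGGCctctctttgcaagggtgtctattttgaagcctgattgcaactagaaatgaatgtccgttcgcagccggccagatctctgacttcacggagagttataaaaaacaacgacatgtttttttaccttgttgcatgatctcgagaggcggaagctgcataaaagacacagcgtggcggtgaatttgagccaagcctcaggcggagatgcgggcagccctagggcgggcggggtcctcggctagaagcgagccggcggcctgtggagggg
Psmd10 promoter, chrX:140956662-140956961, minus strand: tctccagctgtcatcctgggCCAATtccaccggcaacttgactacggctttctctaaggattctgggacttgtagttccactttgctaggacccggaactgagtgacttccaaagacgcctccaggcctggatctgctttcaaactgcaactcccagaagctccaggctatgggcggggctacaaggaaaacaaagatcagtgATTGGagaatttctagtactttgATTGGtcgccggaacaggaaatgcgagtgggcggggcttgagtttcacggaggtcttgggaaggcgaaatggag

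The table held promoters for 40 of the 48 genes, 44 promoters in all since some genes had more than one start, and none for Psma8, Psmb1, Psmb2, Psmb7, Psmc3, Psmd3, Psmd7 and Psmg2. TGANNNNGC was in 59.1% of the members' promoters and in 41.3% of all 32851 promoters in the table. CCAAT was in 31.8% of the members' promoters against 37.4% of all. The interferon-stimulated response element was in 4 of the 44 members' promoters (9.09%), those of Psme1, Psmd4, Psmd9 and Psmg4, against 3.44% of all. TTCNNNGAA was in 3 (6.82%), those of Psmb8, Psmd2 and Psmg1, against 8.3% of all. These matches describe letters in a window. TGANNNNGC and CCAAT were common among all promoters, and the shares of the other motifs rest on only 4 and 3 of the members' promoters. The window of Psmb9 shares 275 bases with that of Tap1, a subunit of the peptide transporter of antigen presentation, since these genes face away from each other, and in the gene order Psmb9, Tap1, Psmb8 and Tap2 are neighbours.

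The arrays differed in brightness as deposited, with medians from 344 to 745, so intensities were quantile normalized, and values at or under an intensity of 100 were set to that floor (a log2 intensity of 6.64), which 19 to 19.1% of probes reached. The knockdown array of day 10 stood apart, with 1050 deposited intensities at or under 0 where the others had 0 to 38, and every value for knockdown cells at day 10 rests on it. To be counted, a member needed at least a 2-fold difference, or 1.5-fold in a second count, and an intensity in its brighter array no lower than the 50th percentile over all genes (10.04 on the log2 scale). As the only measure of error, genes with more than 1 probe gave the SD of a probe's log2 difference, called the between-probe SD: 0.19 for knockdown minus control at day 4, 0.26 at day 10, and 0.57 to 0.78 between days. It says nothing of how cultures vary. The labels were checked by summed marker intensities, which were highest for ESC markers in ESCs (397882, against 5263 to 12178 elsewhere), for mesoderm markers at day 4 (122426 in control and 76771 in knockdown) and for heart muscle markers at day 10 (452005 and 234911). Single markers did not all follow their sum. Of 8 mesoderm markers 7 were higher in control at day 4 than in ESCs (49.6% of all genes), but Eomes was at 12.15 in ESCs and 12.01 in control at day 4. Pdgfra was higher in control at day 10 (14.56) than at day 4 (12.98). Fibroblast and feeder markers summed to 35496 in ESCs, 3504 and 6439 at day 4 and 228749 and 242784 at day 10. Endothelial markers summed to 40089 in ESCs, 59739 and 54425 at day 4 and 146327 and 142321 at day 10. Markers of other cells were thus also bright in the arrays labelled cardiomyocytes.

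Over the differentiation course of the control line, the standard subunits stayed near their ESC levels at day 4 and were lower at day 10, most of them in the 19S cap. The median log2 difference of the 29 core subunits was 0.16 for day 4 minus ESCs and -0.52 for day 10 minus day 4, where the median of all genes was 0. Between day 4 and day 10 the 17 cap subunits had a median of -0.84 (range -1.84 to 0.01) and the 12 barrel subunits -0.18 (range -1.13 to 0.48). In the knockdown line, whose day 4 and day 10 arrays are separate from those of the control, the same medians were -0.65 for the cap and 0.01 for the barrel. The between-probe SD of a single gene was 0.72 in the control and 0.66 in the knockdown comparison. In size the cap median was above this SD in the control line and just under it in the knockdown line. This SD is not the error of a median over 17 genes, which was not measured. By count, 16 of the 17 cap subunits were below 0 in each line, against 49.4% and 49.5% of all genes. Under the 3 other scalings, centred on all genes, the cap lay at -0.80 to -0.70 in the control and -0.54 to -0.50 in the knockdown line, and the barrel at -0.13 to -0.04 and 0.05 to 0.18. The ranges of the cap and the barrel overlapped in both lines, and the difference between them was not tested. In bulk RNA, fewer cells of a type and less RNA per cell cannot be told apart.

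Counted by gene, 12 of 41 members past the intensity filter were at least 2-fold lower in the control line at day 10 than at day 4 (29.3%, against 19.8% of all genes), and 1 was higher (2.44%, against 19.2%). Among core subunits these were 7 of 17 cap subunits (41.2%) and 1 of 11 barrel subunits past the filter (9.09%). At 1.5-fold in the control line, 19 members were lower (46.3%, against 32.9% of all genes) and 1 higher (against 28%). In the knockdown line 11 of 41 members were 2-fold lower (against 18.2% of all genes) and 1 was higher (against 18.7%), and at 1.5-fold 17 were lower (41.5%, against 32%) and 2 higher (against 28.1%). A difference of 1.5-fold is smaller than the between-probe SD of either line's course. Of the 28 core subunits past the filter, 7 were 2-fold lower in both lines, where the share of all genes was 14.9%. They were the cap ATPases Psmc4 and Psmc5, the cap subunits Psmd1, Psmd2, Psmd3 and Psmd11, and the catalytic subunit Psmb5. With the intensities as deposited, without normalization, all genes had a median of -0.72 themselves and 28 members were 2-fold lower in the control line, so these counts hold relative to the other genes of the array.

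**Figure D1:**
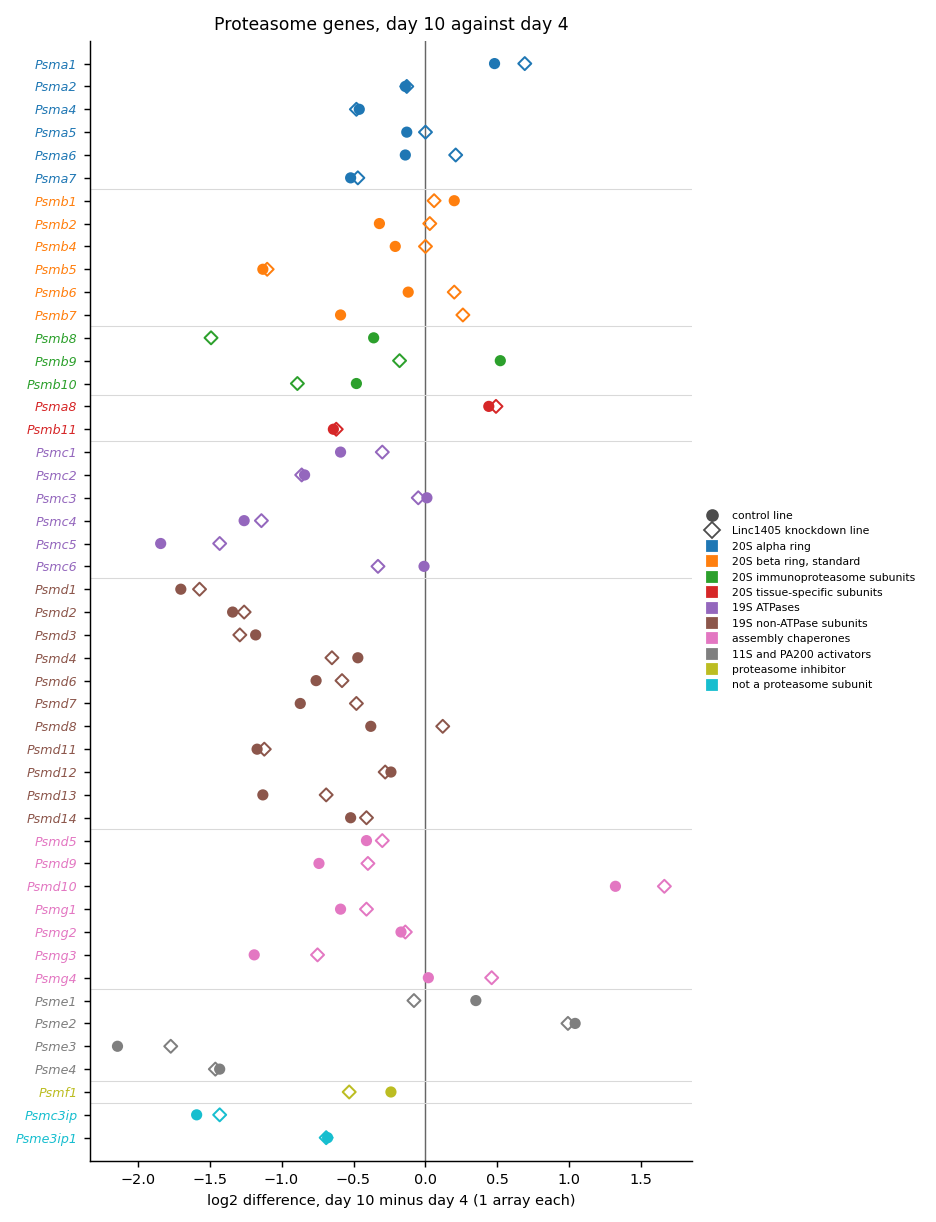
Log2 difference between day 10 and day 4 (x axis) for each of the 48 genes of the rule (y axis, coloured by role), with filled circles for the control line and open diamonds for the knockdown line, 1 array at each end. Most 19S cap genes lie left of 0 in both lines, the 20S barrel genes other than Psmb5 lie closer to 0, and Psmd10 stands apart on the right at 1.32 and 1.66; the points of Psma5, Psmb11 and Psmf1 are bounds, since at least 1 of their arrays was at the floor.

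The probes of the cap's ATPase ring read unevenly, though by no more than probes of 1 gene differ. Psmc5 was at a log2 intensity of 15.21 in ESCs, 15.52 and 15.40 in control and knockdown at day 4, and 13.67 and 13.97 in control and knockdown at day 10. Its day 10 arrays were both below all the others, and in the control line day 4 was 3.59-fold above day 10. Psmc4 stood at 16.09 in ESCs, 16.48 and 16.50 at day 4 and 15.22 and 15.35 at day 10, a difference of -1.26 in the control line. Psmc3 and Psmc6 of the same ring differed by 0.01 and -0.01 between day 4 and day 10, while Psmc1 (-0.59) and Psmc2 (-0.84) lay between. Over the 6 ATPases the SD of the differences was 0.72 in the control and 0.54 in the knockdown line. The between-probe SD was 0.72 and 0.66, so unequal changes of these genes cannot be told from probe error.

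The non-ATPase subunits of the cap were lower at day 10 in all 11 cases in the control line (range -1.70 to -0.24) and in 10 of 11 in the knockdown line, with Psmd8 at 0.12 as the exception. Of all genes, 49.4% were lower in the control and 49.5% in the knockdown line. Psmd1, the large scaffold on which the base of the cap is built, was at 16.72 in ESCs, 16.68 and 16.74 at day 4, and 14.98 and 15.17 at day 10. That is a flat level up to day 4 and a 3.25-fold lower one at day 10 of the control line. Psmd2, the scaffold partner that docks ubiquitin shuttles, was at 15.16, then 15.40 and 15.44, then 14.06 and 14.18. Psmd3, a lid subunit, was at 16.35, then 16.59 and 16.69, then 15.42 and 15.40. In both genes the 2 day 10 arrays lay below the other 3.

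Psmd11, a lid subunit known in human embryonic stem cells for raising proteasome assembly, was at 10.08 in ESCs, 10.24 and 10.29 at day 4, and 9.08 and 9.17 at day 10. The ESC and day 4 arrays were close together, and control day 10 differed by -1.01 from ESCs and by -1.17 from control day 4. Psmd13, another lid subunit, was at 15.87 in ESCs, 16.22 and 16.06 at day 4, and 15.09 and 15.37 at day 10, so it passed 2-fold in the control line (-1.13) and not in the knockdown line (-0.69). The ubiquitin receptor Psmd4 and the deubiquitinase Psmd14 showed smaller differences in the control line, -0.47 and -0.52.

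In the 20S barrel the catalytic subunit with chymotrypsin-like activity, Psmb5, differed from the others. It was at 15.65 in ESCs, 15.67 and 15.75 at day 4, and 14.54 and 14.65 at day 10, and differed between days by -1.13 in the control and -1.10 in the knockdown line. Psmb6, the caspase-like subunit, was at 16.92, then 17.25 and 17.20, then 17.13 and 17.40, with no array far from the rest. Psmb7, the trypsin-like subunit, was at 15.01 in ESCs, 15.21 and 14.82 in control and knockdown at day 4, and 14.62 and 15.08 at day 10. The knockdown was thus below the control at day 4 and above it at day 10 for Psmb7. The alpha ring, which gates the barrel, ranged from -0.52 (Psma7) to 0.48 (Psma1) between day 4 and day 10 of the control line, and Psma5 was at the floor in 4 of 5 arrays, so it gave no level. Psma6 was at 15.71 in ESCs, 15.76 and 15.59 at day 4 and 15.62 and 15.80 at day 10, flat over the course.

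The assembly chaperones, which put the barrel and the base together and then leave, split into 2 directions. Psmd10 (gankyrin), a chaperone of the ATPase ring, was at 14.08 in ESCs, 13.73 and 13.63 at day 4, and 15.06 and 15.29 at day 10. It was the only member past the filter that was 2-fold higher at day 10 than at day 4, by 1.32 in the control and 1.66 in the knockdown line, and its other probe gave 1.36 and 1.20. Psmg3, a chaperone of the alpha ring, was at 14.62, then 14.93 and 14.92, then 13.75 in control and 14.17 in knockdown, with differences of -1.19 and -0.75. The other 5 lay between -0.74 (Psmd9) and 0.02 (Psmg4) in the control line. Outside the subunits, Psmc3ip was at 13.74 in ESCs, 13.90 and 13.96 at day 4 and 12.31 and 12.53 at day 10, and so made up 1 of the 12 lower members.

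**Figure D2:**
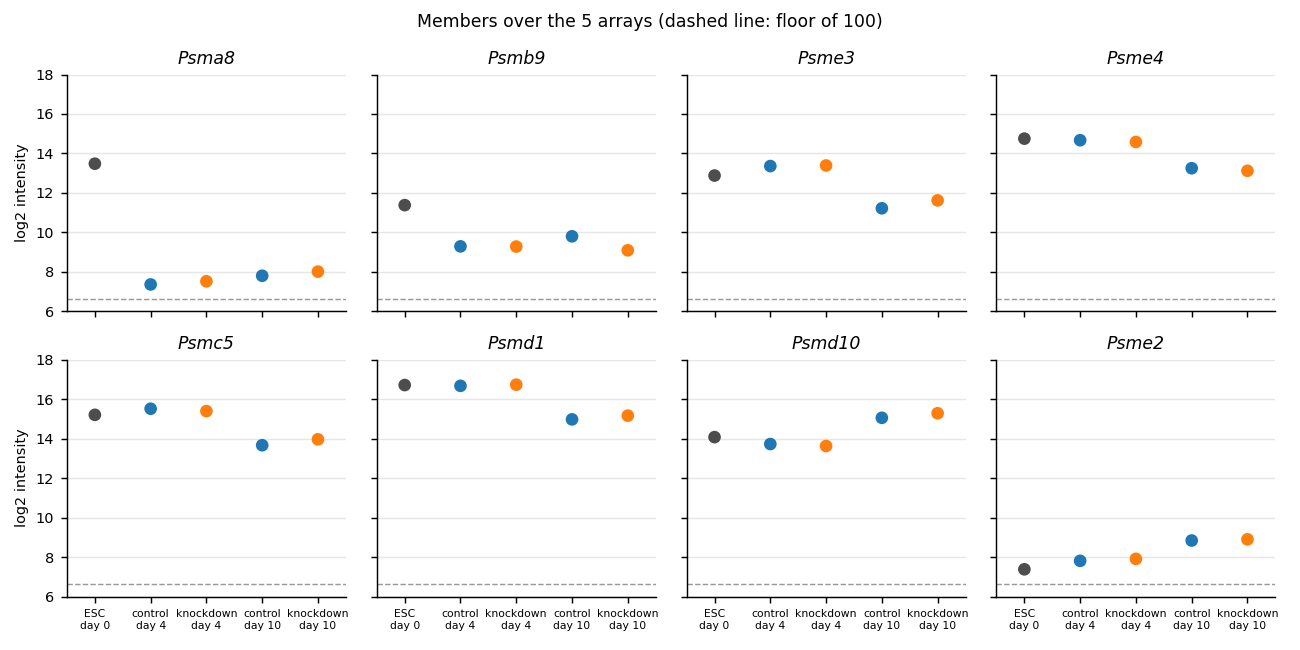
Log2 intensity (y axis) of 8 members in the 5 arrays (x axis, in the order ESC, control and knockdown at day 4, control and knockdown at day 10), with 1 point for each array and a dashed line at the floor. Psma8 is high only in the ESC array (13.48), Psme3, Psme4, Psmc5 and Psmd1 are low in both day 10 arrays, and Psmd10 is high in both.

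The activators that can replace the cap did not move as a group. Psme3, the nuclear 11S activator known for degrading unfolded and cell cycle proteins without ubiquitin, was at 12.88 in ESCs, 13.36 and 13.39 at day 4, and 11.22 and 11.62 at day 10. The day 4 control was 4.42-fold above the day 10 control, and Psme3 was the only member at least 4-fold lower in that comparison. Psme4, the PA200 activator of chromatin-linked proteolysis, was at 14.75, then 14.67 and 14.58, then 13.25 and 13.12, lower at day 10 in both lines.

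The interferon-inducible activator subunits read higher at day 10 than in ESCs, but neither by a well-measured amount. Psme1 differed by 0.73 between control day 10 and ESCs, within the between-probe SD of 0.78, and Psme2 was dim. Psme1 was at 14.11 in ESCs, 14.50 and 14.78 at day 4, and 14.85 and 14.70 at day 10, so every differentiated array was above the ESC array. Psme2, its partner in the ring, was at 7.38, then 7.81 and 7.91, then 8.84 and 8.90, at intensities below the filter. Between day 4 and day 10 Psme1 differed by 0.35 in the control and -0.08 in the knockdown line, and Psme2 by 1.04 and 0.99. The inhibitor Psmf1 was at the floor in ESCs and in both day 10 arrays and at 6.89 and 7.17 at day 4, too dim for a level.

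At entry into mesoderm the standard machinery showed little. Of 43 members past the filter, 0 were 2-fold higher at day 4 than in ESCs (12.7% of all genes) and 2 were lower (4.65%, against 13.6%). These were Psma8 and Psmb9, neither of them a standard subunit, and at 1.5-fold Psmg4 (-0.68) and Psmb8 (-0.63) joined them, 4 in all (9.3%, against 21.3% of all genes), with 0 higher (23.8%). Psma8, the alpha subunit of the germ cell proteasome, was at 13.48 in ESCs, 7.36 and 7.52 at day 4, and 7.80 and 8.01 at day 10. All 4 differentiated arrays lay near the dim end of the scale, too dim for a measured fold, and only the ESC array was bright. Psmb11, the thymus-specific counterpart, was at 6.88 in ESCs, 7.29 and 7.26 at day 4, and at the floor in both day 10 arrays, which is too dim for a level. Of the 29 core subunits 23 were above 0 at day 4 and 5 below, within a range of -0.04 to 0.45, against 49.6% and 39.6% of all genes. The core median of 0.16 was 0.09 with loess centring and 0.30 with the deposited intensities centred on the median of all genes. All single differences of core subunits here lay within the between-probe SD of 0.57.

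Against ESCs, 10 of 43 members were 2-fold lower in control cells at day 10 (23.3%, against 22.8% of all genes) and 0 were higher (23.3% of all genes), so the share of lower members was at the background. With scaling to a common 75th percentile the split was 8 lower and 2 higher when centred on all genes, and 12 and 0 when not. At 1.5-fold, a difference smaller than the between-probe SD of 0.78 here, 19 were lower (44.2%, against 33.7%) and 2 higher (4.65%, against 32%). This comparison shares an array with each of the 2 control comparisons already given. The core median was -0.34, and -0.15 with scaling to a common 75th percentile and centring. Of 28 core subunits past the filter, 5 were 2-fold lower: Psmd1 (-1.74), Psmc5 (-1.53), Psmb5 (-1.11), Psmd2 (-1.10) and Psmd11 (-1.01).

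Other gene lists help to place the size of these differences. For day 10 minus day 4 the chaperonin CCT, another large complex of housekeeping genes, had a median of -0.40 in the control and -0.63 in the knockdown line over 8 genes. Mitochondrial ribosomal proteins (69 genes) had medians of -0.36 and -0.28, and cytosolic ribosomal proteins (37 genes) -0.79 and -0.54. The cap, at -0.84 and -0.65, was thus beside the cytosolic ribosome and the barrel, at -0.18 and 0.01, was nearer to 0 than any of these lists. Proliferation genes (12 of 15 measured) were at -1.12 and -1.04, and their part in the lower cap genes was not tested.

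**Figure D3:**
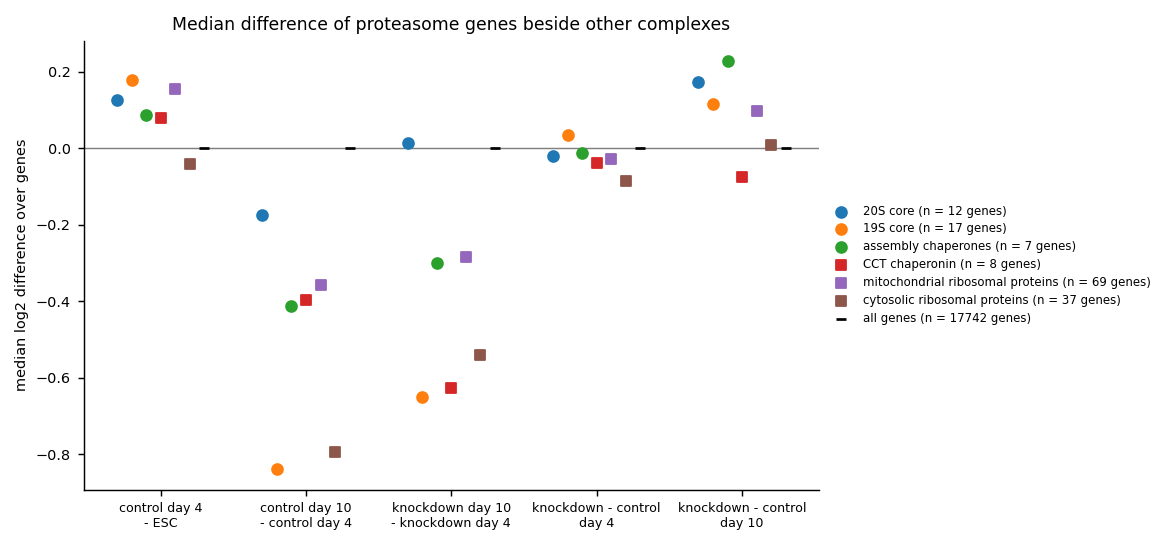
Median log2 difference over the genes of each complex (y axis) in 5 comparisons (x axis), with circles for proteasome groups, squares for other complexes and a dash for all genes; the number of genes is in the legend. In both day 10 minus day 4 comparisons the 19S cap (-0.84 and -0.65) lies well below the 20S barrel (-0.18 and 0.01), while all groups lie between -0.08 and 0.23 in the knockdown comparisons.

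Partners of the proteasome outside the Psm names were measured for 14 of 17 genes and had medians of -0.86 in the control and -0.73 in the knockdown line between day 4 and day 10. In the control line 6 of 12 past the filter were 2-fold lower, against 19.8% of all genes. Among the lowest were Txnl1 (-1.75), a redox protein of the cap, Ubqln4 (-1.71) and Ubqln2 (-1.36), shuttles that carry ubiquitinated proteins, and Adrm1 (-1.55), a ubiquitin receptor of the cap. The chaperone Pomp, which matures the barrel, differed by 0.36. Ubiquitin and segregase genes (7 of 14 measured) had medians of -0.41 and -0.28, and 3 of the 7 were 2-fold lower in the control line, against 19.8% of all genes. These were Nploc4 (-1.63) and Vcp (-1.26), parts of the segregase that extracts substrates for the proteasome, and the ubiquitin-activating enzyme Uba6 (-1.10). Ufd1, the partner of Nploc4 in that segregase, lay on the other side (0.92 in the control and 0.98 in the knockdown line).

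Transcripts of the known regulators of proteasome genes went in both directions. Nfe2l1, the main regulator when the proteasome is limiting, was at 13.03 in ESCs, 12.87 and 13.24 at day 4, and 12.96 and 12.82 at day 10. Over 10 of 13 regulator genes measured, the median between day 4 and day 10 was -0.08 in the control and -0.50 in the knockdown line. Of the 10, 5 and 7 were below 0, against 49.4% and 49.5% of all genes. They ranged from Foxo4 (-2.36 and -2.28), which was below the intensity filter, and Vcp (-1.26 and -1.13) to Nfe2l3 (0.62 and 0.93, also below the filter) and Bach1 (0.88 and 0.98), a repressor at antioxidant response elements. Known Nfe2l2 targets of the antioxidant response (9 of 10 measured) had medians of -1.60 and -1.62, led by Srxn1 (-2.50 in the control line), with Nqo1 (1.01, below the intensity filter) and Hmox1 (0.23) on the other side. Whether these genes and the proteasome genes share a cause was not tested.

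Between the lines, the proteasome genes differed little at day 4. Of 41 members past the filter, 0 were 2-fold higher in the knockdown array (0.652% of all genes) and 0 lower (1.09%), and at 1.5-fold the counts were also 0 and 0 (2.2% and 2.91%). The core median was 0.01, within a range of -0.39 (Psmb7) to 0.24 (Psmb1). Beyond the between-probe SD of 0.19 lay 4 members on the higher side (Psmb1, Psmb8, Psmc6 and Psme1; 9.76%, against 16.4% of all genes) and 1 on the lower side (Psmb7; 2.44%, against 14.6%). The highest members were Psmb8 (0.45), Psmf1 (0.28, between arrays near the floor) and Psme1 (0.28), and the lowest were Psmb7 (-0.39), Psma6 (-0.17) and Psmd13 (-0.16).

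At day 10 the 2-fold counts were again 0 higher (2.41% of all genes) and 0 lower (3.51%) of 40 members past the filter. At 1.5-fold, 0 members were higher (6.91% of all genes) and 1 was lower (Psmb8; 2.5%, against 8.11%). The core median was 0.14 (range -0.13 to 0.53), with 21 of 29 subunits above 0 and 7 below. Of all genes, 45.9% lay above 0 and 42.2% below, and the rest had no difference. The core median was 0.10 with scaling to the 75th percentile and 0.25 with the deposited intensities centred on all genes. On their brightest probes the 7 assembly chaperones were all above 0 (median 0.23), as were the 6 standard beta subunits (median 0.24), of which 4 stayed above 0 with scaling to the 75th percentile. The other probe of the chaperone Psmd10 gave -0.19 and that of Psmb1 gave -0.48. Beyond the between-probe SD of 0.26 lay 11 members on the higher side (27.5%, against 23.7% of all genes) and 2 on the lower side (5%, against 20.8%). The higher share was near the background.

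Without normalization between arrays, the knockdown array at day 10 was brighter by 0.37 at the median over all genes, and then 26 members were 1.5-fold higher and 0 lower. Psmd8, a lid subunit with the highest difference at day 10, was at 14.96 in ESCs, 15.08 and 15.12 at day 4, 14.71 in control and 15.24 in knockdown at day 10. Its difference at day 10 was 0.53, and its other probe gave 0.12. The next were Psmb7 (0.45) and Psmg3 (0.42). Psmb1, with 0.11 on its brightest probe, gave -0.48 on the other, so these small differences depended on the probe where more than 1 was present.

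**Figure D4:**
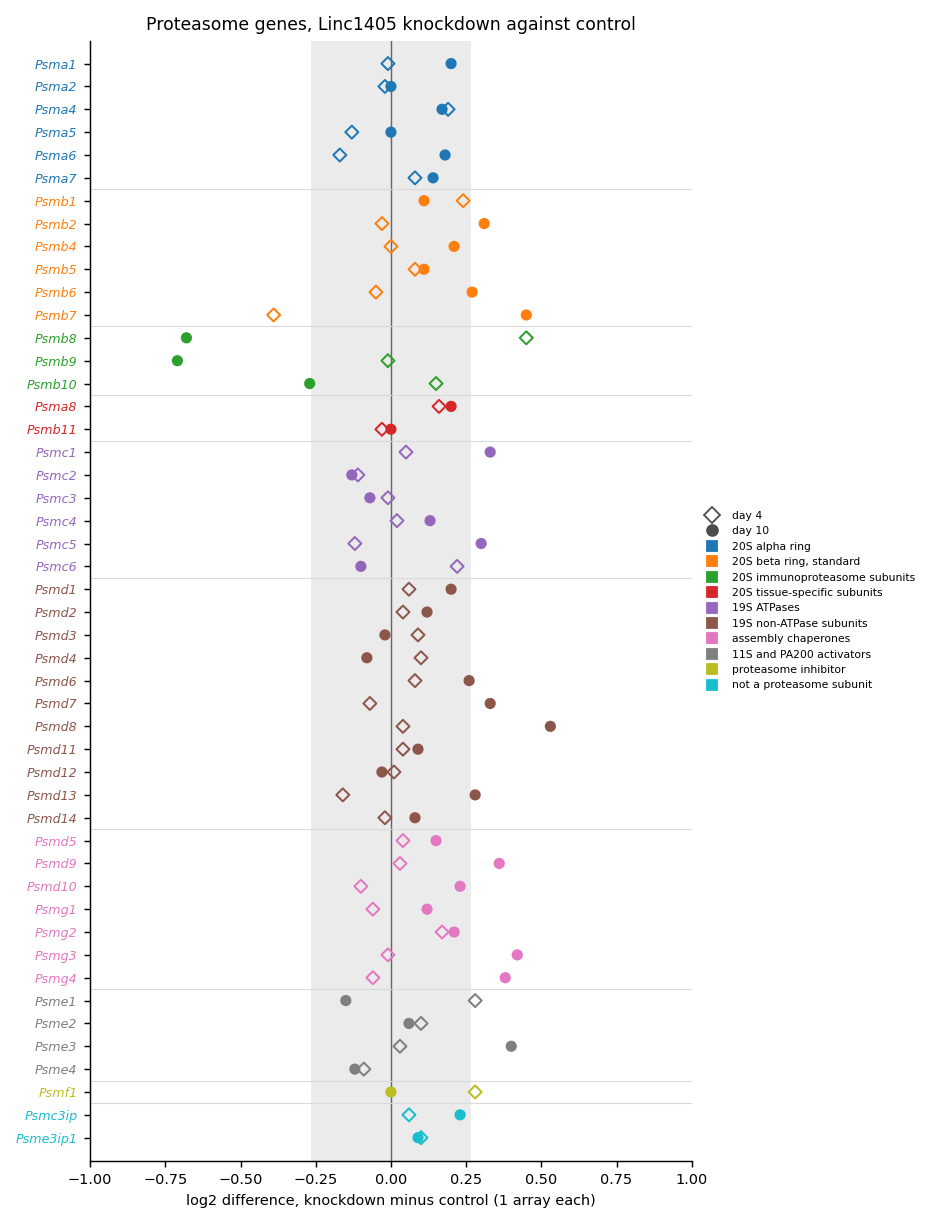
Log2 difference between the knockdown and the control array (x axis) for each of the 48 genes (y axis, coloured by role), with open diamonds for day 4 and filled circles for day 10; the grey band spans the day 10 between-probe SD of 0.26 on each side of 0. Most genes lie inside the band, and the day 10 points of Psmb8 and Psmb9 lie farthest to the left at -0.68 and -0.71.

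The immunoproteasome subunits were on the lower side in knockdown cells at day 10. Psmb8 was at 11.11 in ESCs, 10.49 and 10.94 in control and knockdown at day 4, and 10.13 and 9.45 at day 10. Its lowest array was the day 10 knockdown, 1.6-fold below the control of that day, while at day 4 the knockdown was the higher of the pair. Psmb9 was at 11.38 in ESCs, 9.29 and 9.28 at day 4, and 9.80 and 9.09 at day 10, with the ESC array 4.28-fold above control day 4 and no difference between the lines at that day. At day 10 Psmb9 differed between the lines by -0.71, with both arrays below the intensity filter. Psmb10 was at 14.46, then 14.38 and 14.53, then 13.91 and 13.64, and its difference of -0.27 at day 10 was just past the between-probe SD.

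Relative to the standard subunit that each replaces, every immune subunit was lower in knockdown cells at day 10. The knockdown minus control difference of Psmb8 less that of Psmb5 was -0.79, that of Psmb9 less that of Psmb6 was -0.98, and that of Psmb10 less that of Psmb7 was -0.72. At day 4 the same values were 0.37, 0.04 and 0.54, so no pair was on the lower side there. All 3 immune subunits kept a difference below 0 at day 10 under loess centring, scaling to the 75th percentile and the deposited intensities centred on all genes (range -0.87 to -0.12), but with uncentred deposited intensities, which shift all genes upwards, 1 of the 3 was above 0.

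**Figure D5:**
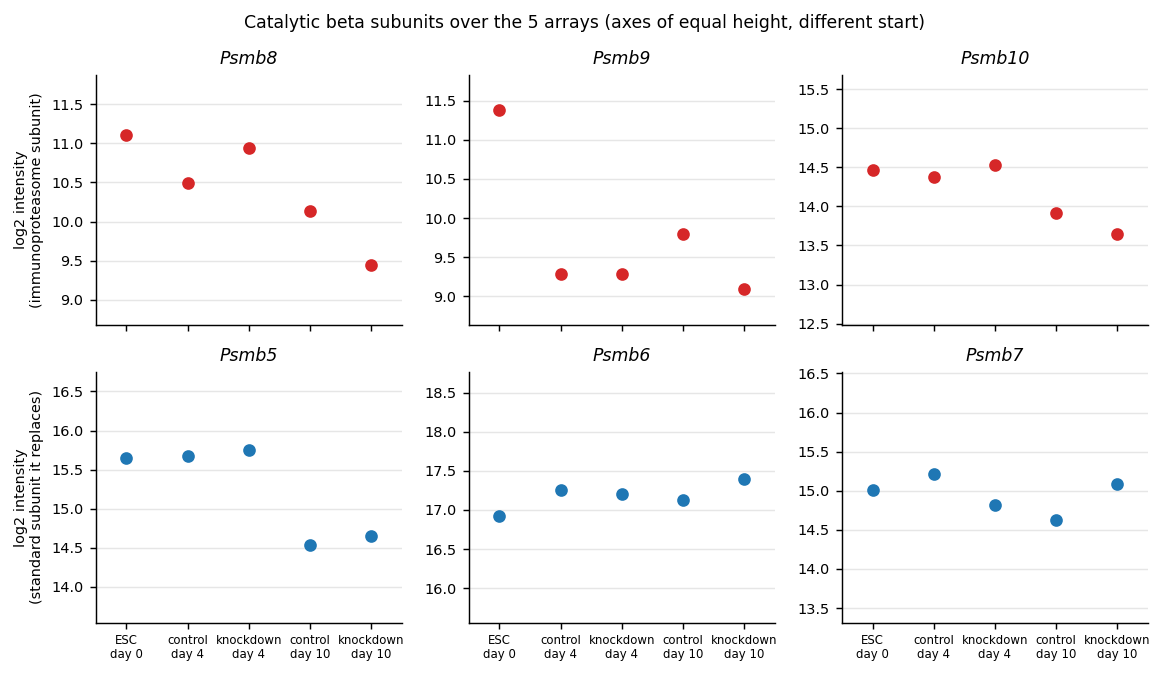
Log2 intensity (y axis, equal height but different start in each panel) of the immunoproteasome subunits (top row, red) and the standard subunits they replace (bottom row, blue) in the 5 arrays (x axis), 1 point for each array. At day 10 each immune subunit is lower in the knockdown than in the control array, and each standard subunit is higher in these quantile normalized values.

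Other genes of antigen processing stood beside them. Tap1, which shares its promoter region with Psmb9, was at 11.92 in ESCs, 11.19 and 10.88 at day 4, and 10.92 and 9.87 at day 10, a difference between the lines of -1.05 at day 10. Irf1, an interferon-induced factor known to act on these genes, differed by -0.75 at day 10. Irf8, below the intensity filter, and the peptide-loading factor Tapbp differed by -0.52 each, and Tap2, the neighbour of Psmb8, by -0.22. The interferon and antigen processing list as a whole, with 24 of 30 genes measured, had a median of 0.02 at day 10. Of its 16 genes past the filter, 1 was 2-fold lower (Tap1, against 3.51% of all genes). In the other direction 1 was higher (Gbp2, by 1.5 on the log2 scale, against 2.41% of all genes). The list as a whole thus lay at the level of all genes, and the lower genes were a part of it.

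Immune cells also express these subunits, and their markers were lower in the knockdown array too. Of 12 macrophage and lymphoid markers 10 were measured, and 9 of them were lower in knockdown than in control at day 10, against 42.2% of all genes. The median of the 10 was -1.17. The lowest were Cx3cr1 (-1.81), Coro1a (-1.44), Csf1r (-1.38) and Ptprc (-1.25, below the intensity filter), with Cd3e at 0.89 on the other side. The summed intensity of these markers was 81662 in ESCs, 40741 and 40132 in control and knockdown at day 4, and 67158 and 48373 at day 10. Cd3e made up most of the day 4 sums, and without it, a choice made after seeing the data, the other 9 markers summed to 53130 in ESCs, 6428 and 6414 at day 4, and 54271 and 24496 at day 10. None of them was at the floor in every array, and Adgre1 was at the floor in both day 4 arrays and Csf1r in the control array of day 4. Their part in the lower Psmb8 and Psmb9 values was not tested. Of 7 heart muscle markers, 6 were 2-fold lower in the day 10 knockdown array, against 3.51% of all genes. Tnnt2 was higher, at 15.94 against 12.89 in control, and the summed intensity was 452005 in control and 234911 in knockdown. Of 8 liver-type endoderm markers, 7 were 2-fold lower (against the same 3.51%) and Alb differed by 0.08, with sums of 190371 and 31029.

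The courses of the control and the knockdown line were alike over the members. Over the 48 genes, the differences between day 10 and day 4 in these lines had a Pearson r of 0.89, and over all 17742 genes the value was also 0.89. This r is across genes, which are not independent replicates. Lower in both lines were 33 of 48 members (68.8%) and 20 of 29 core subunits (69.0%), against 43.0% of all genes. Higher in both were 6 members (12.5%) and 2 core subunits (6.9%), against 33.5% of all genes. Of the 29 core subunits, 21 had the higher course in the knockdown line (72.4%, against 44.6% of all genes). The shares of all genes include genes at the floor, whose differences of 0 count on neither side and make these shares smaller. The median of knockdown course minus control course was 0.11 over the core subunits and 0 over all genes. These values come from the same arrays as the knockdown comparisons at day 4 and day 10. Psmb8 (-1.49 in the knockdown and -0.36 in the control line) and Psmb7 (0.26 and -0.59) were the members with the courses farthest apart.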

How the data were processed

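RNA from 5 cultures was hybridised to single-colour Cy5 arrays, 1 for each group given by the labels. The authors deposited linear probe intensities, made with Agilent Feature Extraction 10.7.1.1 per the submitters' processing notes. No source used here names a further normalization. Intensities at or under 0 occurred (0 to 38 probes on 4 arrays and 1050 on the knockdown array of day 10), so the values had been background-subtracted. Detection and saturation marks were not used here, and the precision is limited by having 5 arrays.

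Of 26423 probes, 20377 carried 1 gene symbol, and the other 6046, with no symbol or with several, were left out. A GRCm38.p6 gene table served to update symbols (18213 current symbols, 2126 synonyms, 38 kept as given), which added Psme3ip1 to the 47 members found by the listed symbol. Intensities were quantile normalized over the 5 arrays, raised to at least 100 (the floor) and log2 transformed, and the brightest probe by mean stood for a gene. Where an array lay at the floor, the difference is a bound. The between-probe SD is the SD of how far the log2 differences of 2 probes of a gene lie apart, divided by the square root of 2. Members and gene lists were chosen with earlier results of these data known. Values are given in all arrays for immunoproteasome and tissue-specific subunits and their standard counterparts, activators, the inhibitor, members 2-fold apart in any comparison, and the 3 highest and lowest members of each knockdown comparison. Other genes come from the lists, at most 4 at each end; Tap2, Pomp, Nfe2l1, Vcp and some small core subunit differences were named for their role. The steps were tested on simulated data and run with Python 3.11.15, numpy 2.4.6, pandas 2.3.3, statsmodels 0.14.6 and matplotlib 3.10.9. Alternatives were other scalings, floors, filters, thresholds and probe choices.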

Additional observations from a re-analysis of the deposited data

Results flagged for a closer look

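The knockdown minus control difference of 2 members lay on opposite sides of 0 at day 4 and day 10, each time beyond the between-probe SD. Of all genes past the filter, 16.4% were higher and 14.6% lower by more than this SD at day 4, and 23.7% and 20.8% at day 10. The share of all genes that changed sides in this way was not counted, so these members are not set apart from other genes. For Psmb7, the trypsin-like subunit, it was -0.39 at day 4 and 0.45 at day 10, so that the day 10 value less the day 4 value was 0.84. For Psmb8, the immune counterpart of Psmb5, it was 0.45 at day 4 and -0.68 at day 10, so that the day 10 value less the day 4 value was -1.13. With 1 array in each group the difference between the days was not tested.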

How the results depend on the processing

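No paired analysis was possible because each group holds 1 array. Apart from the values that follow, the core medians and the counts kept within the between-probe SD or 1.5 times of the value given, and no 2-fold member changed sign. With the filter at the 75th percentile there was 1 member (Psma8) 2-fold lower at day 4 than in ESCs. A 4-fold threshold left 1 member (Psme3) for day 10 minus day 4 of the control line, 1 (Psma8) for day 10 minus ESCs and 0 for the knockdown line's course. The 1 member 1.5-fold lower in knockdown at day 10 (Psmb8) became 0 with loess centring, with 75th-percentile scaling and with a filter at the 75th percentile, and 2 (Psmb8 and Psmb9) with no filter and with a filter at the 50th percentile of all probes, log2 9.16. These settings for the 1.5-fold count and the last filter were chosen after seeing the data. With scaling and loess centring Psmb8 still differed by -0.79, and it dropped out because its brighter array then lay below the filter. For day 10 minus ESCs the split of 0 higher and 10 lower members became 2 and 8 with 75th-percentile scaling centred on all genes, 0 and 12 with that scaling uncentred, and 1 and 9 with loess centring. Without any centring, the deposited intensities put the median of all genes at 0.20 and 0.37 in the knockdown comparisons at day 4 and day 10, 0.17 for day 4 minus ESCs, -0.72 and -0.58 for day 10 minus day 4 in the control and knockdown lines, and -0.51 for day 10 minus ESCs, and 75th-percentile scaling put the last 3 at -0.11, -0.20 and -0.29.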
